A study of Cricetulus griseus with 19 samples.

Results

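Cells take up glucose through membrane transporters and split it into pyruvate by a chain of cytosolic enzymes, the glycolytic pathway. Lactate dehydrogenase can then turn pyruvate into lactate, which regenerates the NAD+ that the pathway consumes. Growing Chinese hamster ovary (CHO) cells are known for a high glucose uptake and for release of much of its carbon as lactate. The 5 genes described here cover this route from entry to exit: Slc2a1 encodes the glucose transporter GLUT1, Gpi the isomerase that turns glucose 6-phosphate into fructose 6-phosphate, Gapdh the NAD+-dependent dehydrogenase of the middle of the pathway, Pgk1 the kinase that makes ATP in the next step, and Ldha the A subunit of lactate dehydrogenase.

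Each of the 5 genes matched 1 transcript target by its RefSeq accession, so 5 of 46718 targets in the files are described, and 528 targets carried a symbol at all. The rule names the members by symbol and uses no measured value, but the genes were picked with earlier results of these libraries known. Polyadenylated RNA came from the Paradaux line, labelled CHO-K1, which is an epithelial-like line from Chinese hamster ovary. The groups were long-term cultures under paradoxical feedback (7 libraries), under negative feedback (7) and with uncontrolled growth (4), with 1 library of the parental line. The Paradaux line carries a synthetic circuit built to let the cells control the size of their own population, and the labels name the culture conditions without describing them further. All cultures were grown for 2 days at less than 80% confluence before harvest. The labels give neither the media nor the time in culture, and they do not say whether numbered cultures were kept apart throughout, so p-values measure the spread between these libraries, part of which may be technical. As bulk measurements, the values cannot tell fewer expressing cells from less RNA per cell.

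Libraries held 9911262 to 13157431 estimated counts, the reads that the quantifier assigned to targets. The inserted construct, the only target in the files without a RefSeq accession, took 15459 to 26550 of them in each library, the parental one included. Short targets, those of less than 800 nt, held 8.50 to 12.4% of the counts under paradoxical feedback, 6.12 to 14.1% under negative feedback, 12.2 to 13.4% in uncontrolled cultures and 11.8% in the parental library. The low values of the negative feedback group were those of cultures 3 to 7 (6.12 to 7.22%), while cultures 1 and 2 had 14.1 and 13.3%. Levels are given as CPM, counts as a share of library sizes scaled by the TMM method. TPM values, which also divide by target length, are used where genes are compared with each other.

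Per length, Gapdh was the highest member, followed by Pgk1, Gpi, Slc2a1 and Ldha. The Gapdh target ran from 7523 to 11280 TPM over the 19 libraries with a median of 9308 TPM, the second highest median of all targets in the files. Pgk1 lay at 313 to 807 TPM (median 567 TPM) and Gpi at 126 to 274 TPM (median 166 TPM). These ranges did not overlap, so the order of these 3 enzymes held in all 19 libraries. Slc2a1 followed at 9.34 to 61.7 TPM (median 23.9 TPM), below Gpi in all libraries. The Ldha target ended the order at 0 to 8.86 TPM, with a median of 0, and no neighbours in the order overlapped.

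The position of the Ldha target does not show that CHO cells lacked the enzyme. Its estimated counts were not whole numbers in 8 libraries, which means that the quantifier shared its reads with similar targets. Those targets were not identified here. The target matched to Actb, the cytoplasmic actin that cells of all kinds use, was likewise at 0 to 1.28 CPM in the 19 libraries. Gapdh also carried shared reads, with whole counts in 10 libraries, although its counts were never below 62049. Slc2a1, Pgk1 and Gpi had whole counts in all libraries, at 138 to 643, 4629 to 11818 and 1896 to 4092 estimated counts.

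**Figure D1:**
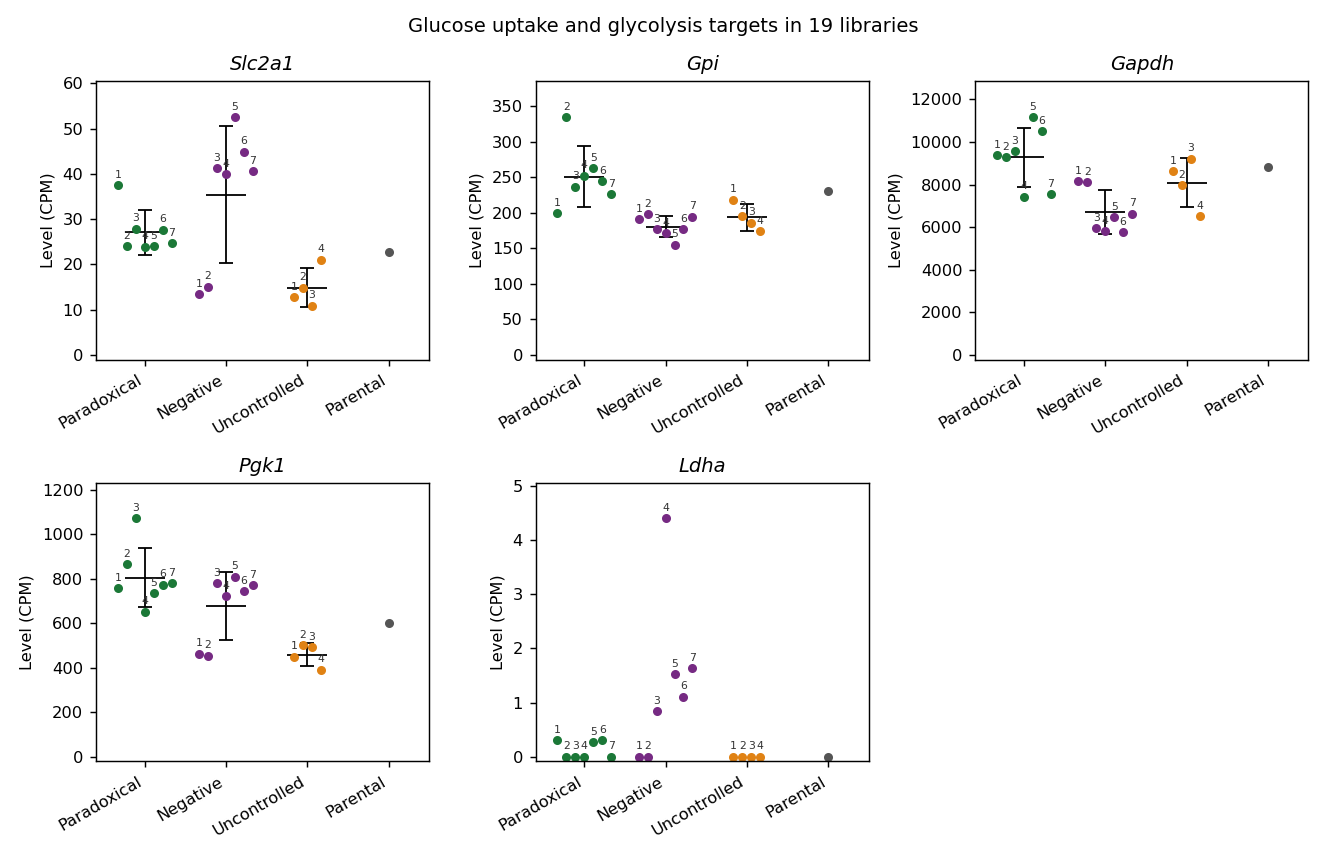
Level in CPM (y axis, linear) of the 5 targets in every library, by culture condition (x axis), with the culture number beside each point. Horizontal bars are group means and whiskers are SD (n = 7, 7 and 4), omitted for Ldha, which was at 0 in many libraries. All 7 paradoxical feedback cultures lay above all 4 uncontrolled cultures for Slc2a1 and Pgk1. Except for Gpi, each of the 5 members drawn separated negative feedback cultures 1 and 2 from cultures 3 to 7. These 2 sets also differed in the percentage of counts on short targets. How often a split like this occurs outside the 5 members was not counted.

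Comparison of paradoxical feedback with uncontrolled growth asks how the pathway stood after long culture under this form of population control. Pgk1 rose, and the other 4 members did not pass the test. Pgk1 was at 653 to 1072 CPM under paradoxical feedback, with a median of 774 CPM, against 450, 501, 494 and 391 CPM in uncontrolled cultures 1 to 4. Every paradoxical feedback culture was above every uncontrolled culture, with culture 3 the highest. The means were 806 ± 133 CPM (SD, n = 7) and 459 ± 50.7 CPM (SD, n = 4). The fitted difference was 0.81 ± 0.18 on the log2 scale (SE; edgeR adjusted p = 0.0182). The call held in 23 of 28 alternatives. It was lost without uncontrolled culture 1, 2 or 4, at 0.80, 0.85 and 0.74 on the log2 scale with edgeR adjusted p of 0.0679, 0.0571 and 0.0561, with the replicate number as a block (0.74, adjusted p = 0.112) and with library sizes on the TPM scale (0.85, adjusted p = 0.0626).

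The glucose transporter Slc2a1 was at 23.9 to 37.6 CPM under paradoxical feedback, with a median of 24.7 CPM, against 12.7, 14.9, 10.9 and 21.1 CPM in uncontrolled cultures 1 to 4. The groups did not overlap in CPM, but uncontrolled culture 4 came close to the lowest paradoxical feedback culture. In TPM they overlapped, with paradoxical feedback culture 5 at 18.1 and uncontrolled culture 4 at 19.8. The fold change of 0.86 ± 0.34 on the log2 scale (95% interval 0.16 to 1.57) missed the threshold, with an edgeR adjusted p of 0.120. All 19 libraries share 1 estimate of the spread in this fit. Negative feedback cultures 3 to 7 were left out of it in an alternative chosen after seeing the data. The fold change was then 0.88 ± 0.21 and passed (edgeR adjusted p = 0.0115). A fit of these 2 groups alone gave 0.86 ± 0.21 (edgeR adjusted p = 0.0149).

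Gpi was at 199 to 335 CPM under paradoxical feedback, with a median of 245 CPM, against 219, 195, 186 and 174 CPM in uncontrolled cultures 1 to 4. The groups overlapped only through paradoxical feedback culture 1, the lowest of its group, which lay between uncontrolled cultures 1 and 2. The log2 fold change was 0.38 ± 0.12 (95% interval 0.12 to 0.63; edgeR adjusted p = 0.0694). Gapdh was at 7441 to 11187 CPM under paradoxical feedback, with a median of 9376 CPM, against 8642, 7970, 9226 and 6538 CPM in uncontrolled cultures. These ranges overlapped, and the log2 fold change of 0.20 ± 0.14 (95% interval -0.10 to 0.49) did not pass (edgeR adjusted p = 0.400). The Ldha target had 3.77, 2.81 and 3.18 estimated counts in paradoxical feedback cultures 1, 5 and 6 and 0 in the other 4, against 0 in all uncontrolled cultures. Both groups were at or near the floor of 3 counts per library, so no fold change is given for it here.

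In this comparison edgeR called 1 of the 5 members as higher, against 4.93% of all 28555 tested targets called as higher (1.5% as lower and 6.43% in either direction). Of the 285 tested targets with a symbol 19.6% were called as higher and 1.05% as lower. In CPM the groups did not overlap, with paradoxical feedback above, for 2 members, Slc2a1 and Pgk1, as for 7.94% of all targets (8.29% with it below). Without Ldha the median log2 fold change of the members was 0.59, close to the 0.55 of targets with a symbol, whereas the median of all targets was 0.024. The members' median thus lay near that of the other named targets. Short targets took 8.50 to 12.4% of the counts under paradoxical feedback and 12.2 to 13.4% in uncontrolled cultures. With that share as a covariate Pgk1 was called at 0.55 ± 0.13 (edgeR adjusted p = 0.0262), and Slc2a1 was at 0.34 ± 0.23 (edgeR adjusted p = 0.455).

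Comparison of negative feedback with uncontrolled growth asks the same of the other form of control, and the negative feedback group joined unlike cultures. Slc2a1 and Pgk1 rose, reads of the Ldha target appeared in 5 of the 7 cultures, and the values of Gapdh and Gpi were slightly lower without passing the test. For Slc2a1, negative feedback cultures 1 and 2 had 13.5 and 15.1 CPM and the other 5 had 39.9 to 52.6 CPM, against 10.9 to 21.1 CPM in uncontrolled cultures. Cultures 3 to 7 were thus the highest of all 19 libraries for the transporter, and cultures 1 and 2 were within the uncontrolled range. The means were 35.4 ± 15.1 CPM (SD, n = 7) and 14.9 ± 4.41 CPM (SD, n = 4). The fitted difference was 1.25 ± 0.34 on the log2 scale (edgeR adjusted p = 0.0324).

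Pgk1 split in the same way. Negative feedback cultures 1 and 2 had 464 and 454 CPM and the other 5 had 722 to 810 CPM, against 391 to 501 CPM in uncontrolled cultures. The first pair lay within the uncontrolled range and the other 5 above it. The log2 fold change was 0.56 ± 0.17, with an edgeR adjusted p of 0.0497, just inside the threshold.

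Gapdh had the opposite order within the negative feedback group. Cultures 1 and 2 had 8147 and 8107 CPM and the other 5 had 5756 to 6637 CPM, against 6538 to 9226 CPM in uncontrolled cultures. The log2 fold change was -0.27 ± 0.14 (95% interval -0.56 to 0.02; edgeR adjusted p = 0.185). Gpi was at 155 to 198 CPM under negative feedback, with a median of 177 CPM, against 174 to 219 CPM in uncontrolled cultures. These ranges overlapped, with a log2 fold change of -0.10 ± 0.12 (95% interval -0.35 to 0.15; edgeR adjusted p = 0.586).

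The Ldha target was at 0 in negative feedback cultures 1 and 2 and at 0.838, 4.40, 1.53, 1.11 and 1.64 CPM in cultures 3 to 7, against 0 in all 4 uncontrolled cultures. Its reads thus appeared in the same 5 cultures that were high for Slc2a1. Set against a floor of 3 counts per library in uncontrolled cultures, the negative feedback mean was 5.32-fold higher, and 3.33-fold higher without culture 4. That floor covers counting error alone and not the sharing of reads among similar targets. The ratio is thus no lower bound and no support for a difference. The target passed the filter on low counts only through these 5 cultures, so its edgeR call (adjusted p = 0.0486) is no support for a difference. Because the reads are shared with similar targets that were not identified, this is a statement on 1 target and not on the Ldha gene.

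With the Ldha target, whose call carries no weight for that reason, edgeR called 3 of the 5 members as higher under negative feedback, against 8.65% of all tested targets (9.76% in either direction). Of targets with a symbol 28.1% were called as higher and 0.351% as lower. The groups overlapped for each of the 5 members, while they did not overlap for 1.67% of all targets with negative feedback above and for 2.2% with it below. Without Ldha the median log2 fold change of the members was 0.23, against 0.43 for targets with a symbol and 0.041 for all targets. With negative feedback cultures 3 to 7 left out no member was called by edgeR, and the log2 fold changes were -0.058 for Slc2a1, 0.0018 for Pgk1, 0.0081 for Gapdh and 0.0096 for Gpi. Without uncontrolled culture 1, 2, 3 or 4, or without negative feedback culture 3, 4, 5, 6 or 7, the count of called members was 0, and without paradoxical feedback culture 1, 2, 5, 6 or 7 it was 1. Without paradoxical feedback culture 3 it was 2, and without culture 4 of that group or negative feedback culture 1 or 2 it was 3. With the replicate number as a block the count was also 0, at log2 fold changes of 1.02 for Slc2a1 and 0.47 for Pgk1 (edgeR adjusted p = 0.191 for both).

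The short-target share moved with these levels. Negative feedback cultures 3 to 7, with 6.12 to 7.22% of counts on short targets, were those with high Slc2a1 and Pgk1 and with low Gapdh, and cultures 1 and 2, with 14.1 and 13.3%, were those within the uncontrolled range. With the share as a covariate no member was called by edgeR, and Slc2a1 and Pgk1 were at 0.26 ± 0.26 and 0.13 ± 0.14 on the log2 scale. Within the negative feedback group the share and the culture set cannot be told apart. It was not counted how many other targets divide cultures 1 and 2 from 3 to 7, so the split is not shown to be particular to these genes. Among the paradoxical feedback cultures, culture 5 with the highest share (12.4%) had 24.0 CPM of Slc2a1 and culture 7 with the lowest (8.50%) had 24.7 CPM. The highest level of the transporter in that group, 37.6 CPM, was in culture 1, whose share lay between these. In TPM the transporter was at 18.1 in culture 5 and at 26.4 in culture 7. In CPM cultures 5 and 7 had 11187 and 7571 of Gapdh, 263 and 226 of Gpi, and 734 and 782 of Pgk1. The part of the share in these results was otherwise not tested.

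**Figure D2:**
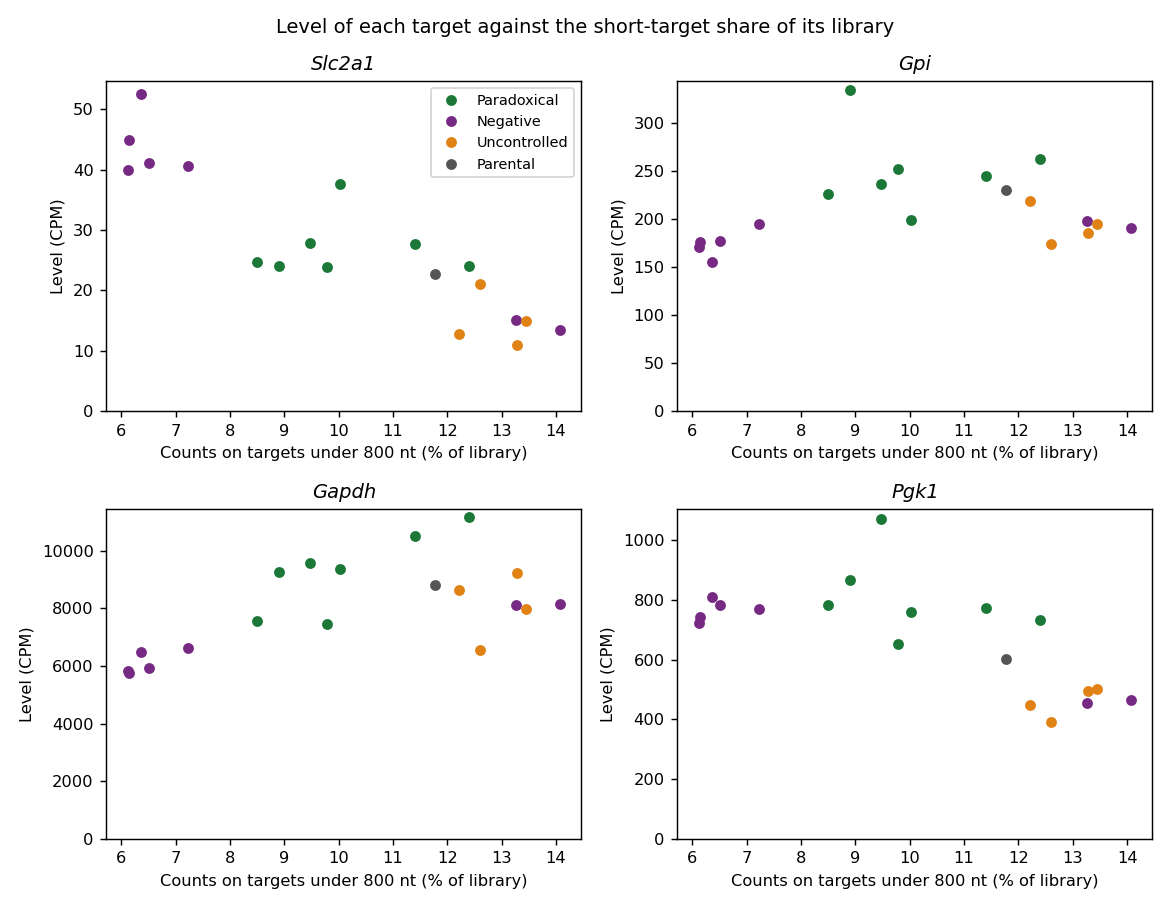
Level in CPM of Slc2a1, Gpi, Gapdh and Pgk1 (y axes, linear from 0) against the percentage of each library's counts on targets under 800 nt (x axis), 1 point per library, coloured by culture condition. Negative feedback cultures 3 to 7 form a set at 6.12 to 7.22%, with 39.9 to 52.6 CPM of Slc2a1, and the other 2 negative feedback cultures lie among the uncontrolled ones.

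Direct comparison of paradoxical with negative feedback called none of the 5 members by edgeR. Of these members 3 had an unadjusted p under 0.05, namely Gapdh, Gpi and Ldha, as had 5033 of all 28555 targets. DESeq2 and limma-voom each called 2, Gapdh and Gpi, beside 1794 and 297 of all targets. Of all tested targets 0.27% were called, and of those with a symbol 0.351% were called as higher. Gpi was at 199 to 335 CPM under paradoxical feedback and at 155 to 198 CPM under negative feedback. All 7 paradoxical feedback cultures were above all 7 negative feedback cultures, which was so for 0.399% of all targets. The log2 fold change was 0.48 ± 0.10 (95% interval 0.26 to 0.69; edgeR adjusted p = 0.0554).

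Gapdh averaged 9277 ± 1388 CPM under paradoxical feedback (SD, n = 7) and 6700 ± 1029 CPM under negative feedback (SD, n = 7). The log2 fold change was 0.47 ± 0.12 (95% interval 0.22 to 0.72; edgeR adjusted p = 0.0818), and in CPM the lowest paradoxical feedback cultures, 4 and 7, lay below negative feedback cultures 1 and 2. Gapdh and Gpi were both called higher without negative feedback culture 1 (edgeR adjusted p = 0.0302 and 0.0272) or culture 2 (0.0349 and 0.0277). Both were also called higher without paradoxical feedback culture 4 (edgeR adjusted p = 0.0483 for both). Of all tested targets 304, 247 and 181 were called higher in these fits. For Gapdh the cultures left out were the highest 2 of the negative feedback group and the lowest of the paradoxical feedback group. For Gpi, negative feedback culture 2 was the highest of its group. The Gapdh calls, and that of Gpi without culture 2, are thus no support for a difference. Slc2a1 was at -0.38 ± 0.28 (95% interval -0.97 to 0.20; edgeR adjusted p = 0.551) and Pgk1 at 0.25 ± 0.15 (95% interval -0.06 to 0.55; edgeR adjusted p = 0.421). For both, negative feedback cultures 1 and 2 lay below all paradoxical feedback cultures, and for Slc2a1 cultures 3 to 7 lay above them all. Negative feedback cultures 3 to 7 were also left out, a choice made after seeing the data. Pgk1 was then called higher under paradoxical feedback at 0.82 ± 0.17 (edgeR adjusted p = 0.0134), and Slc2a1 was at 0.93 ± 0.27 (edgeR adjusted p = 0.0518). The cultures left out were the higher ones of their group for both genes, so this call is no support for a difference. With the short-target share as a covariate Gapdh, Pgk1 and Gpi were called higher, at 0.37, 0.42 and 0.45 (edgeR adjusted p = 0.0378, 0.0421 and 0.0298). That fit called 486 of all 28555 targets higher and 211 lower.

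**Figure D3:**
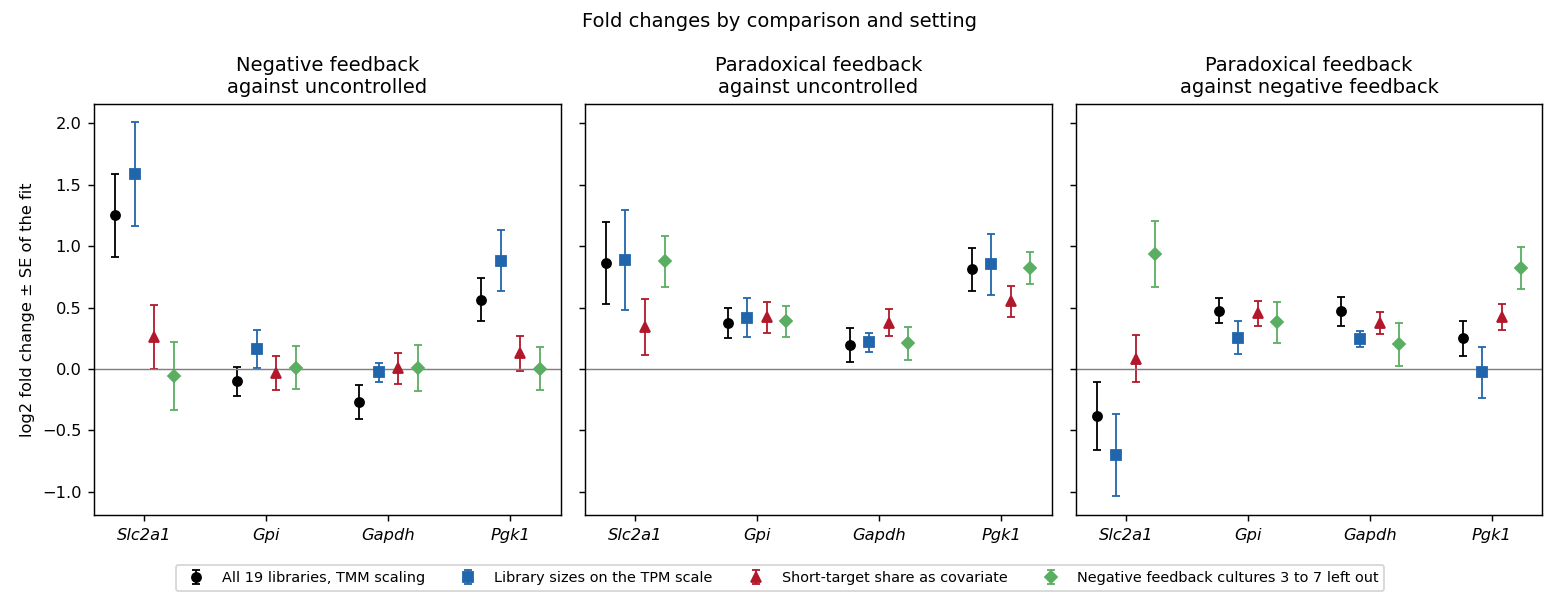
Log2 fold changes of Slc2a1, Gpi, Gapdh and Pgk1 (y axis) with the standard error of the fit, in each of the 3 comparisons and under 4 settings. The fold changes of paradoxical feedback against uncontrolled cultures stayed above 0 in the settings drawn, whereas those of Slc2a1 against uncontrolled cultures under negative feedback were 1.25 with all libraries and -0.058 without negative feedback cultures 3 to 7.

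The scale changed how Gapdh, Gpi and Slc2a1 read. Slc2a1 of paradoxical feedback and uncontrolled cultures overlapped in TPM, unlike in CPM. Gpi of paradoxical feedback cultures (148 to 274 TPM) also overlapped in this unit with that of negative feedback cultures (126 to 178 TPM). In TPM, Gapdh was at 9308 to 11280 under paradoxical feedback and at 8001 to 9282 under negative feedback. It was at 7523 to 9768 in uncontrolled cultures. All paradoxical feedback cultures were above all negative feedback cultures in this unit, but the nearest were close, at 9308 and 9282 TPM. How many of all targets separated in TPM was not counted. Negative feedback cultures 3 to 7 (8509 to 9282 TPM) overlapped with cultures 1 and 2 (8001 and 8603 TPM), unlike in CPM. On library sizes of the TPM scale the median of all targets moved to 0.32 for negative feedback against uncontrolled cultures and to -0.27 for paradoxical against negative feedback. Relative to that median, negative feedback against uncontrolled cultures gave 1.27 for Slc2a1, 0.56 for Pgk1, -0.35 for Gapdh and -0.16 for Gpi, close to the values relative to the median on TMM-scaled libraries, which were 1.21, 0.52, -0.31 and -0.14. The unadjusted direction of Gpi turned on that scale, at 0.16 against -0.10, and the fold change of Gapdh was -0.026.

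Ratios within a library do not depend on its scaling. Per 1000 TPM of Gapdh, Pgk1 was at 45.6 to 77.8 TPM under paradoxical feedback, against 36.2 to 43.7 in uncontrolled cultures. Under negative feedback the ratio was 39.6 and 39.0 in cultures 1 and 2 and 80.8 to 91.5 in cultures 3 to 7. Cultures 3 to 7 thus had the highest ratio of Pgk1 to Gapdh of all libraries, and cultures 1 and 2 were within the uncontrolled range. A ratio of 1.76 to 3.28 TPM of Slc2a1 was found under paradoxical feedback, against 0.968 to 2.64 in uncontrolled cultures, which overlapped through uncontrolled culture 4. Negative feedback cultures 1 and 2 had 1.35 and 1.52 TPM of Slc2a1 per 1000 TPM of Gapdh, and cultures 3 to 7 had 5.02 to 6.65. For Gpi the ratios overlapped in all groups, at 14.3 to 24.3 under paradoxical feedback, 15.8 to 20.7 under negative feedback and 13.6 to 17.9 in uncontrolled cultures. No test was made of these ratios.

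**Figure D4:**
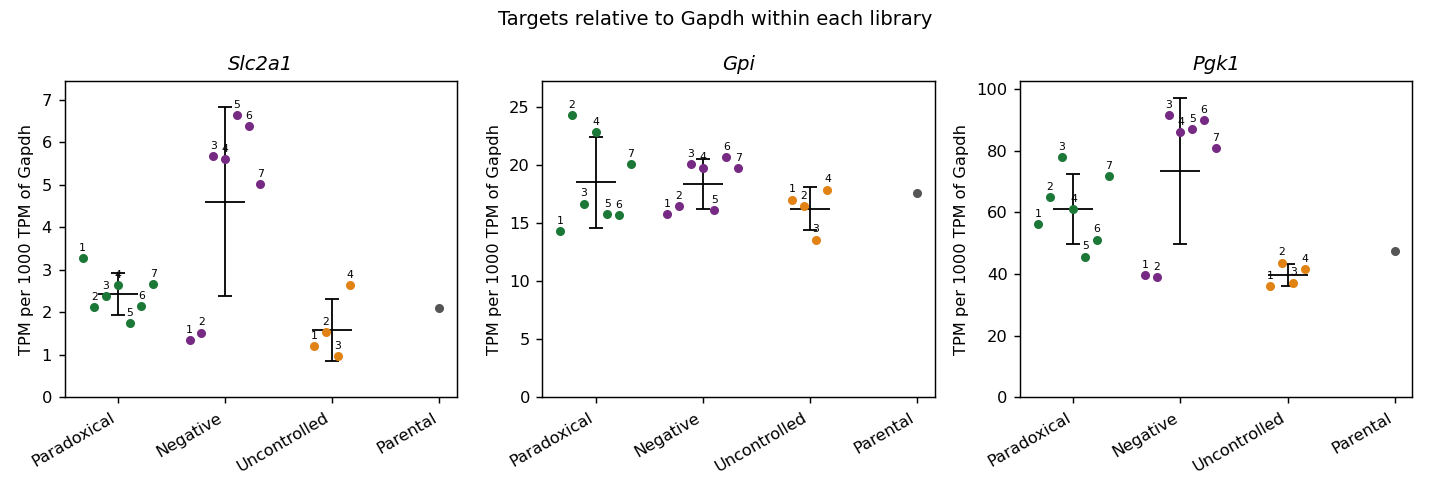
TPM of Slc2a1, Gpi and Pgk1 per 1000 TPM of Gapdh in the same library (y axes, linear from 0), by culture condition, with culture numbers, group means as horizontal bars and SD as whiskers (n = 7, 7 and 4). Pgk1 stood at 80.8 to 91.5 in negative feedback cultures 3 to 7, at 45.6 to 77.8 under paradoxical feedback and at 36.2 to 43.7 in uncontrolled cultures.

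Cultures of 1 condition also differed among themselves. Within the paradoxical feedback group the ratio of the highest to the lowest culture in CPM was 1.57 for Slc2a1, 1.64 for Pgk1 and 1.68 for Gpi. In negative feedback cultures the ratios were 3.90, 1.78 and 1.28 for the same genes, and in uncontrolled cultures 1.93, 1.28 and 1.26. By this ratio the transporter varied most of these 3 among negative feedback and uncontrolled cultures. Different cultures led for different members: among paradoxical feedback cultures, culture 1 was the highest for Slc2a1, culture 2 for Gpi, culture 3 for Pgk1 and culture 5 for Gapdh. In CPM no single culture of the group was thus the highest for all of these members. In TPM culture 2 was the highest for both Gapdh (11280 TPM) and Gpi (274 TPM), with culture 1 for Slc2a1 and culture 3 for Pgk1 as before. Over all 19 libraries the SD of log2 CPM was 0.66 for Slc2a1, 0.40 for Pgk1, 0.29 for Gapdh and 0.27 for Gpi, beside a median of 0.66 over targets with a symbol and 1.00 over all tested targets.

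In CPM the parental library lay between paradoxical feedback and uncontrolled cultures for Pgk1 and Slc2a1. Pgk1 was at 601 CPM there, below all paradoxical feedback and above all uncontrolled cultures, and Slc2a1 at 22.7 CPM was likewise below the first and above the second. Gpi at 230 CPM was above all negative feedback and uncontrolled cultures and within the paradoxical feedback range. Gapdh, at 8821 CPM, was within the paradoxical feedback and uncontrolled ranges, and the Ldha target was at 0. In TPM the position of Pgk1 was the same. Slc2a1 (20.7 TPM) lay within the paradoxical feedback range in that unit, Gpi (173 TPM) within the negative feedback range and Gapdh (9830 TPM) above the uncontrolled range. With 1 library, the parental line was not tested.

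Likeness between targets was measured as the root-mean-square difference of log2 CPM over the 19 libraries after each target was centred on its own mean, which is a description only, since all values share the same libraries and their depth. Among the members Gapdh and Gpi were the most alike, at 0.22, and Slc2a1 and Gapdh the least, at 0.82, with Slc2a1 and Pgk1 at 0.45. Of 242 other symbol-matched targets whose log2 CPM averaged 1 or more, those nearest to Slc2a1 were Top2a (0.28), the topoisomerase of dividing cells, Slc35b4 (0.28), a Golgi sugar-nucleotide transporter, and Adk (0.29), adenosine kinase. Pgk1 was nearest to Adsl (0.18, shared reads), Azin1 (0.18) and Eef2 (0.18), the translocation factor of protein synthesis. Gapdh was nearest to Aimp2 (0.13), Oaz1 (0.14) and Rps13 (0.15, shared reads), and Gpi to Gapdh (0.22), Sdhc (0.22, shared reads) and Oaz1 (0.22). The Ldha target, with a mean log2 CPM of -1.43, was no nearer than 0.84 to any of 243 such targets.

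Other genes around glucose were counted from lists of 142 gene names, of which few could be matched. None of 40 other genes of glycolysis and of lactate or glucose transport had a matched target, so hexokinases, phosphofructokinases, aldolases, enolases and pyruvate kinase were not analysed here. Some genes stood under more than 1 name or in more than 1 list. Of 23 names from the side branches of glycolysis 2 matched. Of 46 names from pyruvate use, the citrate cycle and respiration 3 matched, and of 33 from the response to hypoxia or glucose 1 matched. Pc, pyruvate carboxylase, was at 0 or just above it in every library and did not pass the filter, so 5 of these 6 were tested. In paradoxical feedback against uncontrolled cultures 2 were called higher and 1 lower, and in negative feedback against uncontrolled cultures 1 was called higher and 0 lower. Of targets with a symbol 19.6% were called higher and 1.05% lower in the first comparison, and 28.1% higher and 0.351% lower in the second. Over all targets the shares were 4.93% and 1.5%, and 8.65% and 1.11%.

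Pdha1, a subunit of the pyruvate dehydrogenase that carries pyruvate into mitochondrial oxidation, showed the same split among negative feedback cultures as Slc2a1. Paradoxical feedback cultures had 17.2 to 70.8 CPM (median 39.2 CPM), negative feedback cultures 1 and 2 had 14.3 and 12.1 CPM and the remaining 5 had 69.3 to 104 CPM, against 10.9, 9.57, 10.2 and 11.5 CPM in uncontrolled cultures. Both feedback groups lay above all uncontrolled cultures. The log2 fold change was 1.92 ± 0.54 under paradoxical feedback (edgeR adjusted p = 0.0430) and 2.63 ± 0.56 under negative feedback (edgeR adjusted p = 0.0236), each against the same uncontrolled cultures. Without negative feedback cultures 3 to 7 the second was 0.32 ± 0.42 (edgeR adjusted p = 1). The calls held in 8 and 19 of 28 alternatives. Both were lost without any 1 uncontrolled culture, at edgeR adjusted p of 0.0904 to 0.118 under paradoxical and 0.0525 to 0.0774 under negative feedback. The first was also lost without paradoxical feedback culture 1, 2, 3, 6 or 7 (adjusted p = 0.0551 to 0.0784) and without negative feedback culture 4, 5, 6 or 7 (0.0515 to 0.0541). With the short-target share as a covariate both were lost, at 0.82 ± 0.23 under paradoxical and 0.66 ± 0.25 under negative feedback.

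Sdhc, a membrane subunit of succinate dehydrogenase with shared reads, rose by 0.59 ± 0.11 (edgeR adjusted p = 0.0118), at 79.8 to 95.8 CPM under paradoxical feedback against 54.5 to 60.4 CPM in uncontrolled cultures. This call held in 26 of 28 alternatives, and was lost with the replicate block (adjusted p = 0.103) and on the TPM scale (0.0623).

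Hspa5, the endoplasmic reticulum chaperone that was first described as a glucose-regulated protein, fell under paradoxical feedback, with -1.99 ± 0.56 on the log2 scale against uncontrolled cultures (edgeR adjusted p = 0.0431). Its values ran opposite to those of Slc2a1 among negative feedback cultures, where cultures 1 and 2 had 11872 and 11149 CPM and the other 5 had 1768 to 1896 CPM. Paradoxical feedback cultures had 1071 to 2802 CPM, against 4868 to 11184 CPM in uncontrolled cultures. The call held in 16 of 28 alternatives and in 8 of 18 that left out 1 library. It was lost without any 1 uncontrolled culture (edgeR adjusted p = 0.0640 to 0.127) and without paradoxical feedback culture 1, 2, 3, 5, 6 or 7 (0.0613 to 0.0802). Taldo1, transaldolase of the pentose phosphate branch, was at -0.48 ± 0.15 under negative feedback (edgeR adjusted p = 0.0562) and at 0.01 ± 0.16 under paradoxical feedback (adjusted p = 0.993) against uncontrolled cultures. Ugp2, which makes UDP-glucose, was at 0.22 ± 0.13 and 0.16 ± 0.13 in these comparisons (edgeR adjusted p = 0.269 and 0.491). For Taldo1, negative feedback cultures 1 and 2 had 181 and 178 CPM, within the uncontrolled range of 173 to 196 CPM. Its lower values were those of cultures 3 to 7, at 99.1 to 124 CPM.

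**Figure D5:**
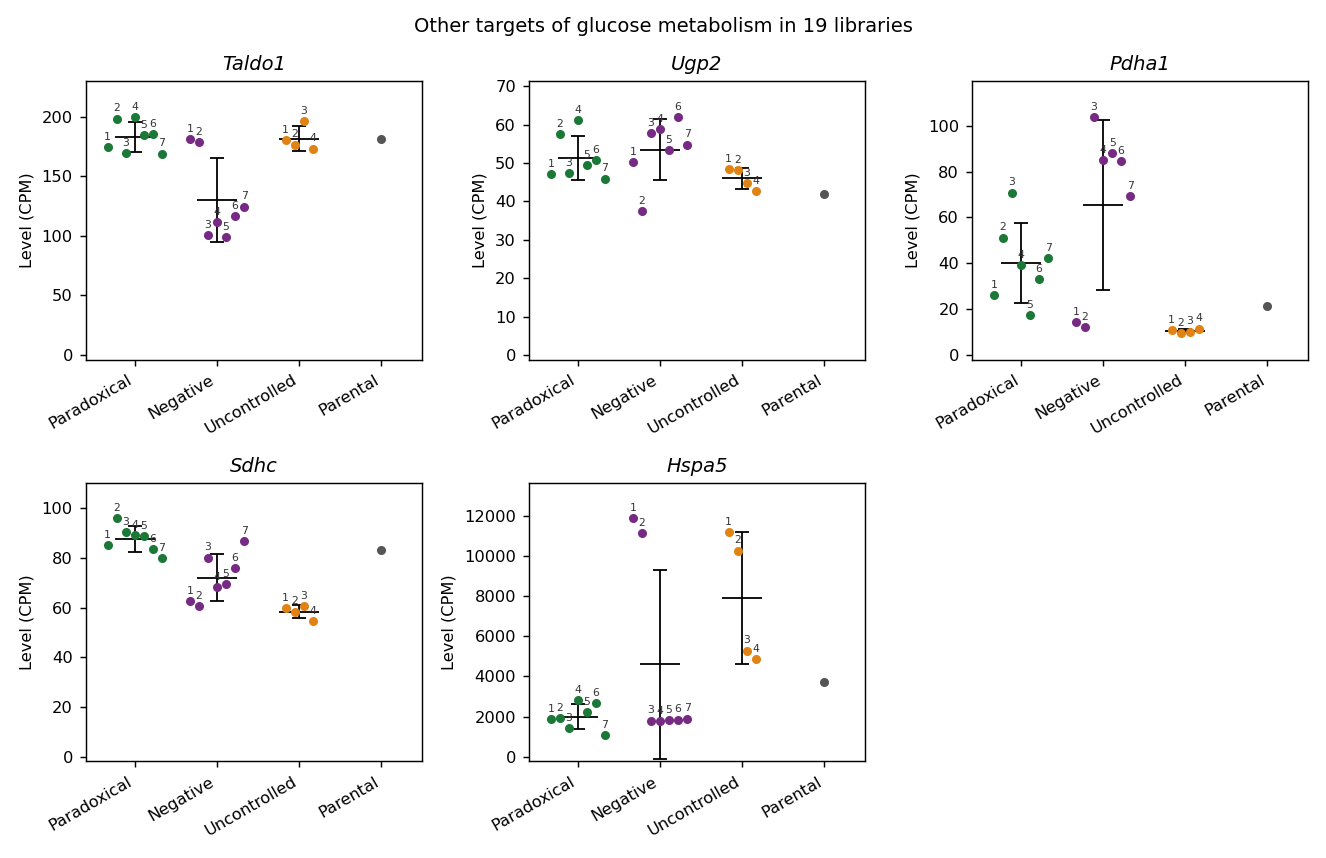
Level in CPM (y axes, linear) of the 5 tested targets from the pathway lists in every library by culture condition. Culture numbers, group means as horizontal bars and SD as whiskers are drawn (n = 7, 7 and 4). Hspa5, a chaperone, comes from the list of the response to hypoxia or glucose. Negative feedback cultures 3 to 7 stood at 69.3 to 104 CPM of Pdha1 and at 1768 to 1896 CPM of Hspa5, whereas cultures 1 and 2 lay at 14.3 and 12.1 CPM of Pdha1 and at 11872 and 11149 CPM of Hspa5.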

How the data were processed

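Per the file headers, each library's file lists 46718 transcript targets with length, effective length, an estimated count and TPM. The estimated counts deposited by the authors are reads assigned to a target, shared among similar targets. The TPM values deposited by the authors scale these by effective length, which was the same in all files. Per the submitters' processing notes the tools were Trim Galore and kallisto. Tool versions, genome build and annotation were not given in the sources used here, so no coordinates are printed.

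Symbols came from RefSeq accessions of assembly CriGri-PICRH-1.0, without version numbers, and matched 528 targets. Counts were rounded, filtered with filterByExpr (28555 targets left), scaled by TMM and tested with edgeR 4.0.16 (quasi-likelihood) in R 4.3.3, with 1 coefficient per group over all 19 libraries and Benjamini-Hochberg adjustment over all targets, called at an adjusted p under 0.05. The test code was tested on simulated data. Alternatives used DESeq2 1.42.0, limma 3.58.1, other scalings, filters and covariates, a replicate block and each library left out in turn. A count was whole within 1e-06. Floors of 3 counts cover counting error alone, since no molecular identifiers mark independent molecules.

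Log2 CPM used a prior count of 2. The named genes are the 5 members, matched genes of the 4 pathway lists and the 3 targets nearest to each member, with Actb from a list of line markers as an exception. A further gene was left out of these lists and is not reported here. Of the line markers Actb alone matched, and of the blood cell markers none. The members and lists were chosen with earlier results of these data known, and 2 of the alternatives (negative feedback cultures 3 to 7 left out, and TPM-scale library sizes) were chosen after seeing the data.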

Additional observations from a re-analysis of the deposited data

Results flagged for a closer look

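Within groups of 4 to 7 cultures, 31 sets of CPM values were screened for a culture far from the rest of its group, which chance gives in about 1 in 20 sets, and 3 were found. Slc2a1 in paradoxical feedback culture 1 was at 37.6 CPM, against 23.9 to 27.9 CPM in the other 6. Without that culture the log2 fold change of Slc2a1 against uncontrolled cultures was 0.77 (edgeR adjusted p = 0.184). The Ldha target in negative feedback culture 4 was at 4.40 CPM, against 0 to 1.64 CPM in the other 6. Actb in negative feedback culture 7 was at 1.07 CPM, against 0 in the other 6. With the other 6 at 0, any culture at or above the floor of 3 counts would have been flagged. The rate of 1 in 20 thus does not hold for Actb, and it need not hold for the Ldha target, whose values include 0.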

How the results depend on the processing

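Against 3 (the Ldha target included), 1 and 0 members called by edgeR in negative feedback against uncontrolled cultures, in paradoxical feedback against the same cultures and in paradoxical against negative feedback, all cultures left out in turn gave 0 to 3, 0 to 1 and 0 to 2. For the first comparison, library totals alone and no filter on low counts each gave 1 member, and the fit of the compared groups alone, the short-target covariate, the replicate block and the omission of negative feedback cultures 3 to 7 each gave 0. For the second, DESeq2, the omission of cultures 3 to 7 and the fit of the compared groups alone each gave 2, and the replicate block and the TPM scale 0. For the third, DESeq2 and limma-voom each gave 2, the covariate 3 and the omission of cultures 3 to 7 gave 1. Over all targets the counts of 2787, 1835 and 77 became 7 to 6938, 127 to 3204 and 0 to 989 with each culture left out. DESeq2 gave 6436, 4823 and 1794, the fit of the compared groups alone 10, 4956 and 0, the covariate 6, 1145 and 697, the replicate block 4, 4 and 0, and the omission of cultures 3 to 7 gave 13, 4926 and 2454. Limma-voom gave 5039 for the first and 297 for the third. RLE scaling, library totals and no filter gave 11, 42 and 2 for the third, and the TPM scale 794 for the second and 4 for the third. For paradoxical feedback against uncontrolled, edgeR called 1408 higher and 427 lower, library totals alone gave 905 and 521, the TPM scale 461 and 333, DESeq2 3094 and 1729, and limma-voom turned the balance to 1082 and 1507. For negative feedback against uncontrolled 2470 and 317 became 4880 and 1556 with DESeq2 and turned to 1637 and 3402 with limma-voom. For paradoxical against negative feedback 47 and 30 became 1 and 10 under RLE scaling, 2 and 2 on the TPM scale and 478 and 1316 with DESeq2. The causes were not tested. Of 415 fold changes of single members under the alternatives 8 turned direction: for negative feedback against uncontrolled, Gapdh at 0.0040 with the covariate and 0.0081 without cultures 3 to 7, Gpi at 0.0096 without them and 0.16 on the TPM scale and Slc2a1 at -0.058 without them, and for paradoxical against negative feedback, Pgk1 at -0.028 on the TPM scale and Slc2a1 at 0.085 with the covariate and 0.93 without cultures 3 to 7. Deviations from the group means of same-numbered cultures correlated at -0.16 to 0.11, with 1 of 15 pairs above 0.1. Differently numbered cultures were not compared in this way, so the correlations cannot exclude pairing. The labels do not say whether equal numbers mark paired cultures, so the block is an alternative only. At 138 to 643 counts, Slc2a1 was the tested member with whole counts whose depth was least.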
